A study of Drosophila melanogaster with 7 samples.

Results

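The 10 genes followed here encode regulators of heterochromatin or of chromosome 4 of Drosophila melanogaster, and they were selected by gene name. They are the H3K9 methyltransferase genes egg, Su(var)3-9 and G9a, the cofactor gene wde, the HP1 genes Su(var)205, HP1b and HP1c, the HP1-associated gene Su(var)3-7, the SUMO ligase gene Su(var)2-10, and Pof. All 10 were found among the 13771 listed genes, all 10 passed the filter on low counts, and they were represented by 31 of the 29939 listed transcripts. Their levels were compared between ovarian cells with an Atx2 knockdown (Atx2 KD) and cells with a control knockdown (Control KD).

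The series measured RNA in ovarian cells sorted for bamP-GFP, a green fluorescent reporter under the promoter of bam, which is active in dividing germline cysts. In the Atx2 KD group an shRNA against Atx2 was expressed under nos-GAL4::VP16, a driver that is active in the germline, and 4 libraries were made. In the Control KD group an shRNA against mCherry was expressed under the same driver, and 3 libraries were made. Reporter and driver are therefore common to both groups, while the ages of the flies and the number of animals per library are not given in the sources used here. The labels call the replicates separate samples without saying that they came from separate flies, so the p-values measure the spread between these libraries.

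Heterochromatin is the compact, gene-poor part of the genome, which in flies surrounds the centromeres and covers much of the small chromosome 4. Its nucleosomes carry methyl groups on lysine 9 of histone H3 (H3K9), which methyltransferases write and HP1 proteins bind. In the ovary this machinery is known to silence transposons, guided by Piwi and its small RNAs, and to keep testis genes off in female germ cells. The protein encoded by Pof binds genes of chromosome 4, where the methyltransferase encoded by egg is also the main writer of H3K9 methylation.

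The libraries held from 65262402 to 101809997 estimated reads, and levels are given as CPM, counts scaled to a common library total after TMM normalization. A gene was called changed at an adjusted p under 0.05 (edgeR, quasi-likelihood), as were 1396 of 10514 tested genes, or 13.3%. Of these, 590 were higher (5.61% of tested genes) and 806 lower (7.67%) in Atx2 KD cells. The split depended on scaling, with 811 higher and 600 lower under upper-quartile scaling and 688 higher and 438 lower in a limma test of log2(TPM + 1). Atx2 itself averaged 233 ± 28.7 CPM in Atx2 KD cells (SD, n = 4) and 420 ± 27.3 CPM in Control KD cells (SD, n = 3). Same-numbered libraries of the groups deviated together for numbers 2 and 3, while number 1 was not set apart from unlike numbers. A second fit with the replicate number as a block was made. Atx2 KD replicate 4 has no Control KD partner, so the group difference in that fit comes from numbers 1, 2 and 3 alone. The blocked fit called 2941 genes (28.0%), 1448 higher (13.8%) and 1493 lower (14.2%).

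The sorted cells also held RNA of other cell types. All 11 germline markers on a fixed list were detected in every library, with vas at 337 to 441 CPM in Atx2 KD cells and 365 to 473 CPM in Control KD cells. In Atx2 KD cells 4 of these 11 markers were lower (nanos, AGO3, otu and orb) and 1 higher (bgcn). The 11 eggshell and yolk markers, made by follicle cells, summed to 3281 to 19050 CPM in Atx2 KD cells and 18240 to 36610 CPM in Control KD cells, with 6 of them lower and 0 higher. No eggshell or yolk marker was higher at an unadjusted p under 0.05 or in DESeq2 either. Of the 10514 tested genes, 1496 were higher at that unadjusted p and 1038 in DESeq2. The 5 muscle sheath markers summed to 839 to 1208 CPM in Atx2 KD cells and 481 to 769 CPM in Control KD cells, and all 5 were higher. Hemocyte markers summed to 271 to 831 CPM in Atx2 KD cells and 123 to 322 CPM in Control KD cells, with 1 of 5 higher (Pxn), and 2 of 10 early somatic markers were higher (Fas3 and eya). No marker on these lists was at 0 in all libraries. The part of these cells in the changes below was not tested, and in bulk RNA fewer cells of a type and less RNA per cell cannot be told apart.

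Of the 10 genes, 2 fell in Atx2 KD cells and 1 rose at an adjusted p of 0.05, while 7.67% of all tested genes fell and 5.61% rose. Su(var)3-9 and egg, which both encode H3K9 methyltransferases, fell, and HP1c rose. In CPM the groups did not overlap for 7 of the 10 genes. Of these, egg, Su(var)3-9, G9a, wde and Su(var)2-10 were lower in every Atx2 KD library than in any Control KD library, as were 15.1% of all tested genes. For G9a, wde and Su(var)2-10, none of them called, this did not hold in TPM, which is scaled for length. Atx2 KD replicate 1 was at 51.5, 50.7 and 105 TPM for these genes, above Control KD replicate 3 at 49.1, 47.6 and 101 TPM. Su(var)205 and HP1c were higher in CPM in every Atx2 KD library, as were 12.3% of all tested genes. The median log2 fold change of the 10 genes was -0.10, beside 0.01 over all genes tested.

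**Figure D1:**
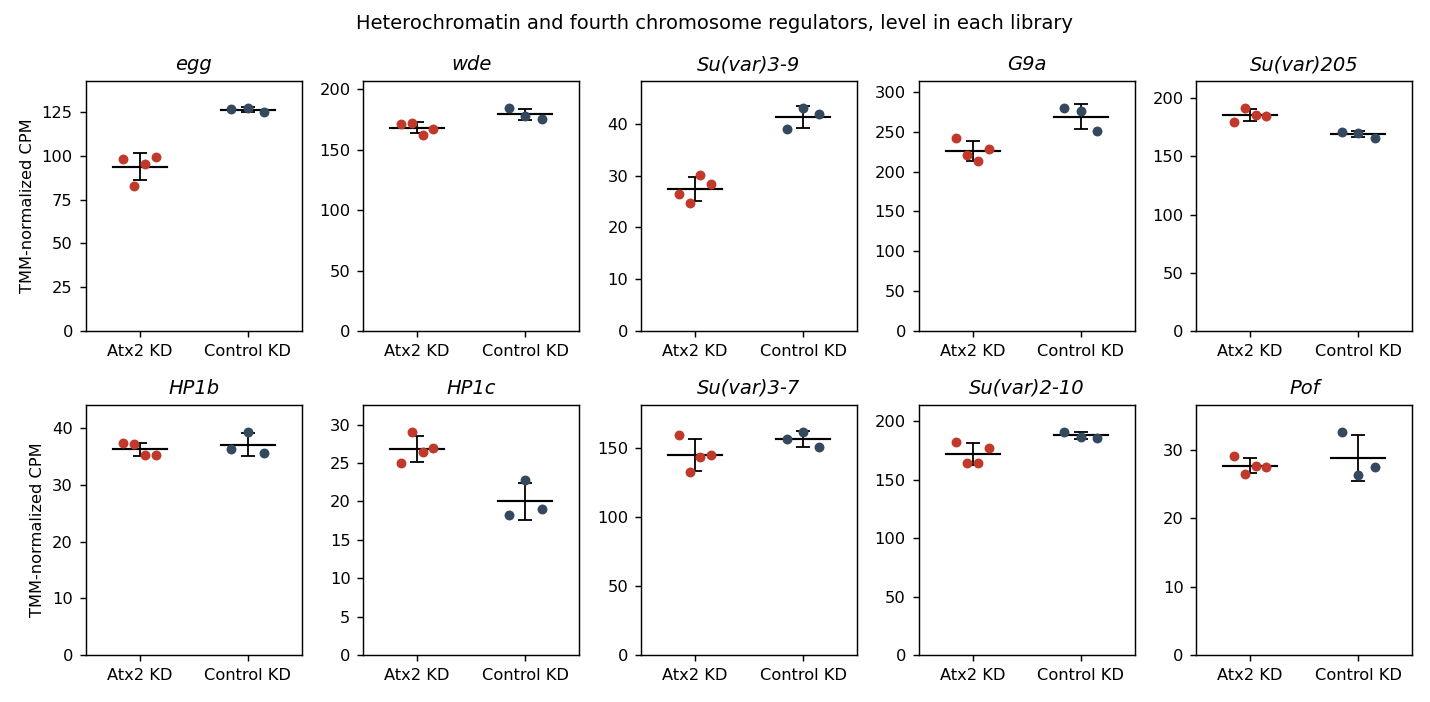
Level of each of the 10 genes in TMM-normalized CPM, with 1 point per library (4 Atx2 KD, 3 Control KD), the mean as a line and the SD as a bar. The points of egg, Su(var)3-9, G9a, wde and Su(var)2-10 lie lower in Atx2 KD cells without overlap, those of HP1c and Su(var)205 lie higher, and those of HP1b, Su(var)3-7 and Pof overlap.

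Su(var)3-9 (FBgn0263755, arm 3R, 15259864 to 15263458, minus strand) encodes the enzyme of pericentric heterochromatin after which the SUV39 family is named. It was at 26.5, 24.7, 30.1 and 28.4 CPM in Atx2 KD replicates 1 to 4 and at 39.0, 43.0 and 41.8 CPM in Control KD replicates 1 to 3. The highest Atx2 KD library thus lay well below the lowest control. Means were 27.4 ± 2.36 CPM (SD, n = 4) in Atx2 KD cells and 41.3 ± 2.07 CPM (SD, n = 3) in Control KD cells, and the Atx2 KD mean was 66.4% of that in Control KD cells. edgeR gave a log2 fold change of -0.59 ± 0.08 (SE) and an adjusted p of 0.00331. In the same-numbered pairs 1, 2 and 3 the log2 ratio was -0.56, -0.80 and -0.47. The call was kept in 16 of the 17 alternative fits, and was lost with the mean of the eggshell and yolk markers as a covariate, where the log2 fold change was -0.61 and the adjusted p 0.0670.

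Su(var)3-9 shares a transcription unit with eIF2gamma, which encodes a subunit of a translation initiation factor. Of the 2386 exon bases of Su(var)3-9, 352 (14.8%) lie in eIF2gamma exons transcribed in the same direction, and Salmon's split of those reads enters both counts. eIF2gamma averaged 327 ± 14.2 CPM in Atx2 KD cells (SD, n = 4) and 303 ± 13.1 CPM in Control KD cells (SD, n = 3). It differed by 0.11 ± 0.07 (SE) on the log2 scale, adjusted p 0.302. The TPM of Su(var)3-9 as a ratio to that of eIF2gamma was 0.0696, 0.0606, 0.0717 and 0.0705 in Atx2 KD replicates and 0.103, 0.122 and 0.109 in Control KD replicates, and the groups did not overlap.

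The gene egg (eggless, FBgn0086908, arm 2R, 24775534 to 24779901, minus strand) encodes the fly SETDB1, the H3K9 methyltransferase that oogenesis requires. It was at 97.9, 82.5, 95.4 and 99.0 CPM in Atx2 KD replicates and at 127, 127 and 125 CPM in Control KD replicates. The control libraries lay within a narrow band, and Atx2 KD replicate 2 was the lowest of all. The means were 93.7 ± 7.62 CPM (SD, n = 4) in Atx2 KD cells and 126 ± 1.24 CPM (SD, n = 3) in Control KD cells, a log2 fold change of -0.43 ± 0.08 (SE) at an adjusted p of 0.0108. The pairs 1, 2 and 3 gave log2 ratios of -0.37, -0.63 and -0.39. The call was kept in 14 of 17 alternatives, among them the fit with the eggshell and yolk covariate (adjusted p 0.0317). It was lost in both limma tests of TPM, with adjusted p of 0.0743 and 0.0702, and among the libraries numbered 1 and 2 alone (0.0768), where the fit has 4 libraries. Exons of egg share 629 bases (16.0%) with a noncoding antisense RNA, and whether counting used strand was not given.

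The partner of egg was less different between groups. wde (windei, FBgn0027499, arm 2R, 10800420 to 10808938, minus strand) encodes the cofactor that SETDB1 needs for its activity in the ovary. It was at 171, 172, 162 and 167 CPM in Atx2 KD replicates and at 185, 178 and 176 CPM in Control KD replicates. The ranges did not overlap but lay close together, with a log2 fold change of -0.09 ± 0.06 (SE) and an adjusted p of 0.346. Per length, egg had 0.682, 0.561, 0.697 and 0.711 times the TPM of wde in Atx2 KD replicates and 0.836, 0.855 and 0.853 times in Control KD replicates. The ratio was lower in every Atx2 KD library than in any control.

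G9a (FBgn0040372, arm X, 245978 to 254650, plus strand) encodes the H3K9 methyltransferase best known from euchromatin. It was at 242, 220, 213 and 228 CPM in Atx2 KD replicates and at 280, 276 and 251 CPM in Control KD replicates. Every Atx2 KD library lay below every control, by a narrow margin between Atx2 KD replicate 1 and Control KD replicate 3. The log2 fold change was -0.25 ± 0.07 (SE), and its adjusted p of 0.0510 missed the threshold. With the replicate block it was -0.26 ± 0.06 (SE) and passed, with an adjusted p of 0.0150. That brought the fallen genes among the 10 to 3, while 14.2% of all tested genes fell in that fit, against 7.67% without the block. G9a also passed without Control KD replicate 3 (0.0453), in DESeq2 (0.0196) and with the filter at 1 CPM (0.0445), while under upper-quartile scaling its adjusted p was 0.115.

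**Figure D2:**
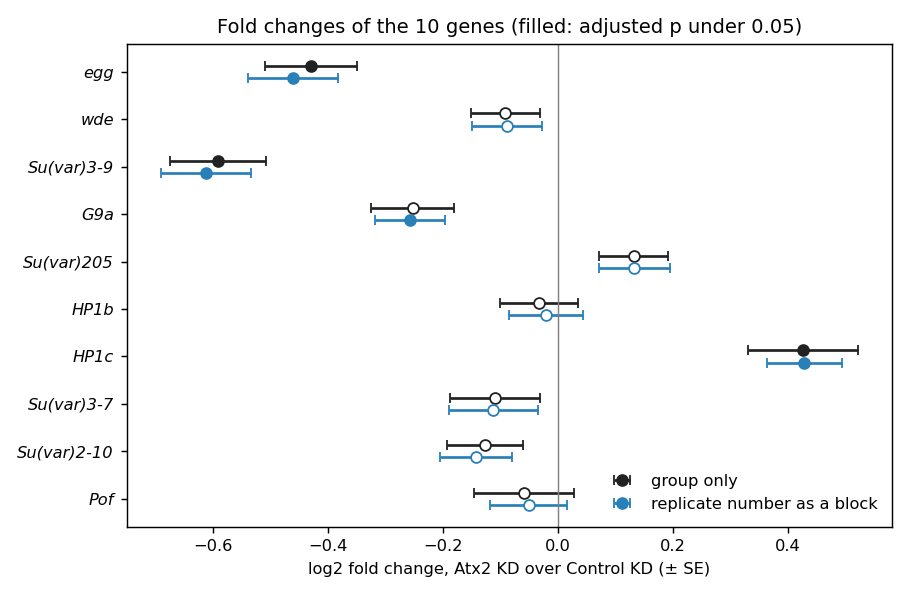
Log2 fold change of each gene, Atx2 KD over Control KD, with its SE, from the fit on group alone and from the fit with the replicate number as a block. Filled points passed an adjusted p of 0.05. Su(var)3-9 at -0.59, egg at -0.43 and HP1c at 0.43 are filled in both fits and G9a in the blocked fit.

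The HP1 family differed among its members. HP1c (FBgn0039019, arm 3R, 22745620 to 22746605, plus strand) encodes the paralog that is found mainly in euchromatin, where it works with the zinc finger proteins encoded by woc and row. It was at 25.0, 29.1, 26.4 and 26.9 CPM in Atx2 KD replicates and at 18.3, 22.8 and 19.0 CPM in Control KD replicates, so all Atx2 KD libraries lay above all controls. edgeR gave 0.43 ± 0.10 (SE) on the log2 scale at an adjusted p of 0.0224, and the pairs 1, 2 and 3 gave 0.46, 0.35 and 0.47. The call was lost without Atx2 KD replicate 4 (adjusted p 0.0530), without Control KD replicate 1 (0.0994), without Control KD replicate 3 (0.0505) and among libraries numbered 1 and 2 (0.166), where the log2 fold change was 0.40. With the eggshell and yolk covariate it was kept (0.0465). Exons of HP1c share 160 bases (16.2%) with the opposite-strand gene CG17141.

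Su(var)205 (FBgn0003607, arm 2L, 8209626 to 8211122, minus strand) encodes HP1a, the founding HP1 protein and main reader of H3K9 methylation. It was at 179, 192, 186 and 185 CPM in Atx2 KD replicates and at 171, 170 and 166 CPM in Control KD replicates. All Atx2 KD libraries lay above all controls, yet the log2 fold change of 0.13 ± 0.06 (SE) did not pass, with an adjusted p of 0.173. HP1b (FBgn0030082, arm X, 9081063 to 9082746, plus strand), found in both euchromatin and heterochromatin, was at 37.4, 37.2, 35.2 and 35.4 CPM in Atx2 KD replicates and at 36.4, 39.5 and 35.6 CPM in Control KD replicates. Its groups overlapped, with a log2 fold change of -0.03 ± 0.07 (SE) and an adjusted p of 0.781. In TPM, which is scaled for length, HP1a made up 76.1 ± 0.383% of the summed HP1 RNA in Atx2 KD cells (SD, n = 4) and 76.3 ± 1.36% in Control KD cells (SD, n = 3). HP1c made up 11.1 ± 0.308% in Atx2 KD cells and 9.24 ± 0.850% in Control KD cells, and HP1b 12.8 ± 0.548% in Atx2 KD cells and 14.5 ± 0.537% in Control KD cells. The ratio of HP1c to HP1b TPM was 0.790 to 0.911 in Atx2 KD libraries and 0.602 to 0.676 in Control KD libraries, without overlap.

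The remaining regulators did not pass. Su(var)3-7 (FBgn0003598, arm 3R, 13264364 to 13270038, plus strand) encodes a zinc finger protein that binds HP1a. It was at 160, 133, 143 and 145 CPM in Atx2 KD replicates and at 157, 162 and 151 CPM in Control KD replicates, and the groups overlapped. The difference was -0.11 ± 0.08 (SE) on the log2 scale, adjusted p 0.376. Exons of Su(var)3-7 share 693 bases (13.7%) with the opposite-strand gene TBC1D5. Su(var)2-10 (FBgn0003612, arm 2R, 9116122 to 9122000, plus strand) encodes the PIAS family SUMO ligase that links Piwi to SETDB1. It was at 182, 164, 164 and 177 CPM in Atx2 KD replicates and at 191, 186 and 186 CPM in Control KD replicates. The Atx2 KD libraries all lay lower, with a log2 fold change of -0.13 ± 0.07 (SE) and an adjusted p of 0.227.

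Pof (FBgn0035047, arm 2R, 24669397 to 24671577, plus strand) lay at 29.1, 26.4, 27.7 and 27.5 CPM in Atx2 KD replicates and at 32.7, 26.3 and 27.5 CPM in Control KD replicates. Exons of Pof share 284 bases (14.1%) with the opposite-strand gene Mmp1. The groups overlapped, and Control KD replicate 1 was the highest library. The difference was -0.06 ± 0.09 (SE) on the log2 scale, adjusted p 0.687, and it was 0.05 without that library. On chromosome 4, to which its protein binds, the 79 tested genes had a median log2 fold change of 0.21, while the medians of the other arms ranged from -0.01 to 0.02, and 24 genes were higher and 1 lower, against 5.61% and 7.67% of all tested genes. With the block 32 were higher and 9 lower, against 13.8% and 14.2% of all tested genes in that fit. The summed CPM of the 79 genes overlapped between groups, at 12600 to 13900 in Atx2 KD libraries and 12600 to 13080 in Control KD libraries. The largest rises among genes with a mean of at least 1 CPM were those of NfI at 2.63 ± 0.17 (SE), a transcription factor gene, and CG31997 at 2.25 ± 0.22 (SE), and the 1 fall was that of CG11076 at -0.31 ± 0.08 (SE), with adjusted p of 0.000110, 0.000692 and 0.0373. NfI and CG31997 kept their calls in all 17 alternatives. CG11076 kept its call in 8, and was at -0.12 with the eggshell and yolk covariate (adjusted p 0.580).

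Per length, in Control KD cells Su(var)205 was highest, at 264 ± 15.5 TPM (SD, n = 3), above 96.4% of the tested genes. Su(var)2-10 followed at 101 ± 6.63 TPM. G9a at 51.6 ± 3.58 TPM, HP1b at 50.0 ± 1.96 TPM and wde at 48.0 ± 3.16 TPM did not differ beyond their spread, and neither did Su(var)3-7 at 40.9 ± 1.71 TPM and egg at 40.7 ± 2.21 TPM below them. HP1c was next at 31.8 ± 1.89 TPM, followed by Su(var)3-9 at 23.8 ± 0.429 TPM and Pof at 22.8 ± 3.93 TPM, which did not differ beyond their spread. In Atx2 KD cells HP1c, at 43.8 ± 1.48 TPM (SD, n = 4), lay above egg, at 31.3 ± 4.30 TPM. Su(var)3-9, at 16.3 ± 1.95 TPM, lay below Pof, at 22.4 ± 2.36 TPM.

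**Figure D3:**
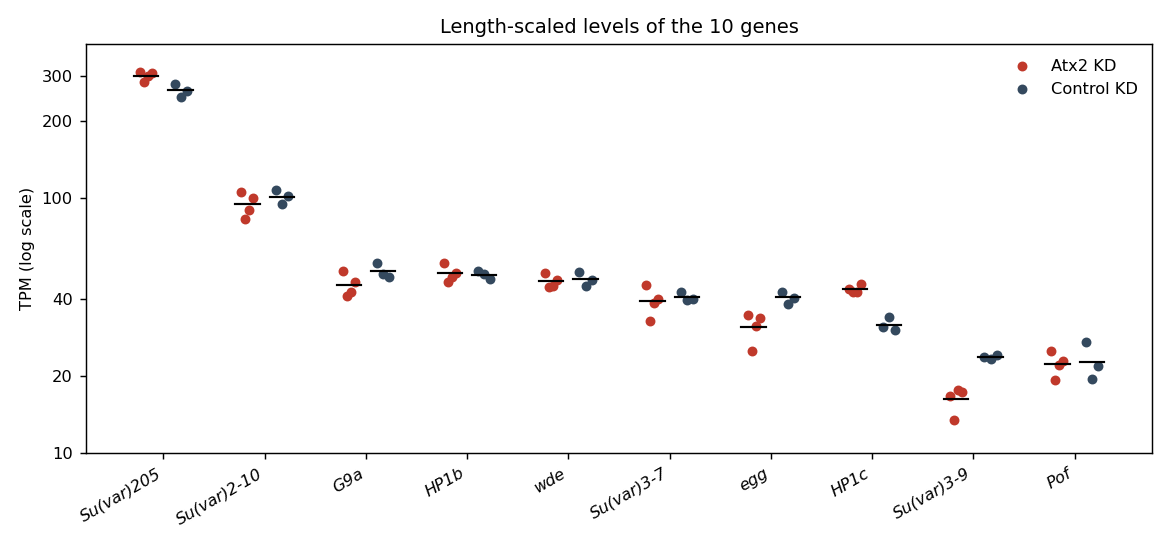
TPM of the 10 genes on a log axis, ordered by the Control KD mean, with 1 point per library and a line at the mean of each group (4 Atx2 KD libraries at left, 3 Control KD libraries at right of each pair). HP1c lies above egg in Atx2 KD cells and below it in Control KD cells.

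Of the 31 listed transcripts of these genes, 29 were tested and 2 passed an adjusted p of 0.05, as did 4.71% of all tested transcripts. They were the single listed transcripts of egg (egg-RA, -0.43 ± 0.08 (SE), adjusted p 0.0319) and of Su(var)3-9 (Su(var)3-9-RA, -0.59 ± 0.09 (SE), adjusted p 0.0205). With the replicate block 0 passed, with adjusted p of 0.0636 and 0.0583 for this pair. In either fit 11 had an unadjusted p under 0.05, and 7 passed in DESeq2. The matching shares of all tested transcripts are not given here, so these counts are not read as a result about the 10 genes. The single transcript of HP1c differed by 0.43 ± 0.11 (SE), adjusted p 0.0763.

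Transcripts of 7 of the 10 genes could be tested for unequal change within the gene, and 0 passed in edgeR, while 3.96% of the genes tested in this way did. At an unadjusted p under 0.05 there were 2, wde and Su(var)2-10, and a limma test of log2 transcript shares called 0. For wde the minor transcript wde-RB (FBtr0339467) made up 4.19, 8.35, 6.60 and 3.68% of the gene's estimated counts in Atx2 KD replicates and 9.67, 16.3 and 9.97% in Control KD replicates. Its share was lower in every Atx2 KD library, and wde-RA (FBtr0088253) made up the rest. wde-RB was at 9.63 ± 3.79 CPM in Atx2 KD cells (SD, n = 4) and 21.4 ± 6.68 CPM in Control KD cells (SD, n = 3), while wde-RA was at 159 ± 5.06 CPM in Atx2 KD cells and 158 ± 8.95 CPM in Control KD cells. The adjusted p for unequal change in wde was 0.0636, and it was 0.0408 with the block and 0.182 in the share test. With the block 241 genes were called for unequal change, against 202 without it. On simulated data the edgeR test of unequal change made many false calls.

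In the other genes no difference in transcript shares passed the test. G9a-RA (FBtr0070063) made up 74.3 ± 1.61% of G9a in Atx2 KD cells (SD, n = 4) and 78.2 ± 2.12% in Control KD cells (SD, n = 3). It differed by -0.32 ± 0.08 (SE), adjusted p 0.0600, and G9a-RB by -0.02 ± 0.11 (SE), adjusted p 0.949. Su(var)205-RA made up 71.9 ± 1.40% in Atx2 KD cells and 73.9 ± 0.807% in Control KD cells. Su(var)2-10, with 14 listed transcripts, had its largest shares in Su(var)2-10-RE, at 26.8 ± 1.25% in Atx2 KD cells and 24.1 ± 1.67% in Control KD cells, and Su(var)2-10-RH, at 22.0 ± 1.44% in Atx2 KD cells and 18.8 ± 1.92% in Control KD cells. Su(var)2-10-RK made up 11.3 ± 1.48% in Atx2 KD cells and 8.43 ± 0.312% in Control KD cells. For Su(var)2-10-RJ the share was 8.48 ± 0.758% in Atx2 KD cells and 10.6 ± 1.42% in Control KD cells. The levels of RK and RJ differed by 0.29 ± 0.11 and -0.45 ± 0.11 (SE) on the log2 scale, adjusted p 0.175 and 0.0689 in edgeR. Pof-RA made up 65.2 ± 1.37% of Pof in Atx2 KD cells and 68.4 ± 1.58% in Control KD cells. Such shares rest on Salmon's division of reads among overlapping transcripts, whose uncertainty was not used.

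**Figure D4:**
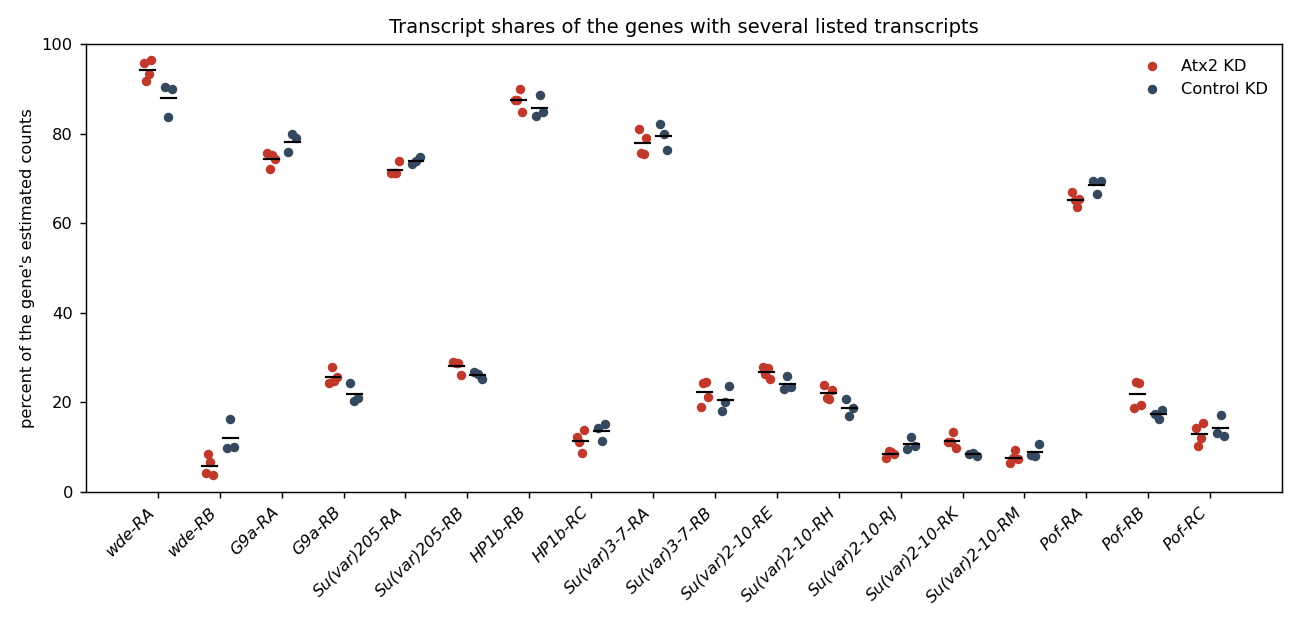
Share of each gene's estimated counts by transcript, for genes with several listed transcripts and transcripts that reached 10% in at least 1 library, with 1 point per library and a line at the group mean (Atx2 KD left, Control KD right). The share of wde-RB is lower in all Atx2 KD libraries (3.68 to 8.35%) than in Control KD libraries (9.67 to 16.3%).

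Genes that work with these regulators were read from the same fit. Of 55 genes on 5 lists, 54 were tested, and 6 rose and 6 fell, while 5.61% of all tested genes rose and 7.67% fell. With the block 10 rose and 9 fell, against 13.8% of all tested genes that rose and 14.2% that fell in that fit. The counts for single lists below are to be read against the same shares. At an unadjusted p under 0.05, 1496 of the 10514 tested genes were higher and 1717 lower. In DESeq2 1038 were higher and 1113 lower. The lists are small and were described by counts alone.

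Among 11 genes of Piwi-directed silencing and SETDB1 cofactors, 2 rose and 2 fell, with a median log2 fold change of 0.04. mael (maelstrom), required for silencing downstream of Piwi, fell most, with 80.3 ± 5.12 CPM in Atx2 KD cells (SD, n = 4) and 134 ± 2.08 CPM in Control KD cells (SD, n = 3). edgeR gave it -0.74 ± 0.07 (SE) on the log2 scale at an adjusted p of 0.000692, and it kept its call in all 17 alternatives. arx (asterix), a Piwi partner, fell by 0.28 ± 0.07 on the log2 scale (adjusted p 0.0397), a call kept in 4 of 17 alternatives and lost whenever a library was left out. HDAC1, a histone deacetylase gene, and Nxt1, a gene of the nuclear export machinery that partners with Nxf2, rose by 0.36 ± 0.07 and 0.35 ± 0.08 (adjusted p 0.0114 and 0.0279), with calls kept in 14 and 10 of 17 alternatives. piwi itself differed by -0.10 (adjusted p 0.531).

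Among 8 SUMO pathway genes 2 rose and 0 fell, with 0 lower at an unadjusted p under 0.05 or in DESeq2, and the median was 0.25. Aos1, a subunit of the SUMO activating enzyme, rose by 0.31 ± 0.07 (SE), adjusted p 0.0223. lwr, the SUMO conjugating enzyme Ubc9, rose by 0.27 ± 0.08 (SE), adjusted p 0.0468. The calls of Aos1 and lwr were kept in 11 and 9 of 17 alternatives. SUMO itself (Sumo) differed by -0.04 (adjusted p 0.693).

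Of 21 HP1 relatives and partners 20 were tested, 2 rose and 0 fell, and the median was 0.00. In DESeq2 3 rose and 1 fell. At an unadjusted p under 0.05 there were 3 higher and 2 lower genes, and with the block 3 rose and 2 fell. The 2 lower genes were rhi, which encodes the germline HP1 protein Rhino, and row, and both passed with the block. vig, named after its values were seen, differed by 0.43 ± 0.13 (SE), adjusted p 0.0649, and passed with the block (0.00166). HP4, an HP1a-binding protein gene, rose by 0.34 ± 0.08 (SE), adjusted p 0.0232, a call kept in 12 of 17 alternatives. HP6, an HP1 relative also known as Umbrea, was outside the rule for naming genes because of its low level and was chosen after its values were seen. It was at 1.43, 1.81, 1.21 and 1.23 CPM in Atx2 KD replicates and at 0.462, 0.325 and 0.242 CPM in Control KD replicates, log2 fold change 2.05 ± 0.32 (SE), adjusted p 0.00540. The HP1c partners woc and row differed by 0.01 and -0.22 (adjusted p 0.943 and 0.0990), and rhi by -0.36 (adjusted p 0.0690).

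Among 9 other histone modifiers 4 fell and 0 rose, with 0 higher at an unadjusted p under 0.05 or in DESeq2, and the median was -0.20. Kdm3, an H3K9 demethylase gene, fell by 0.45 ± 0.10 on the log2 scale (adjusted p 0.0261). Set8, the H4K20 monomethylase gene, fell by 0.44 ± 0.07 (adjusted p 0.00715). Su(var)3-3, the LSD1 demethylase gene, fell by 0.36 ± 0.08 (adjusted p 0.0164), and JIL-1, which encodes an H3 kinase that counters heterochromatin spread, fell by 0.32 ± 0.08 (adjusted p 0.0310). JIL-1 lies outside the rule for naming genes and was chosen after its values were seen. Set8 kept its call in 15 of 17 alternatives, Su(var)3-3 in 11, Kdm3 in 9 and JIL-1 in 8. Of the 6 genes of the MSL complex and its targeting, the dosage compensation system of the male X, 0 passed, 0 had an unadjusted p under 0.05 and 0 passed in DESeq2.

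**Figure D5:**
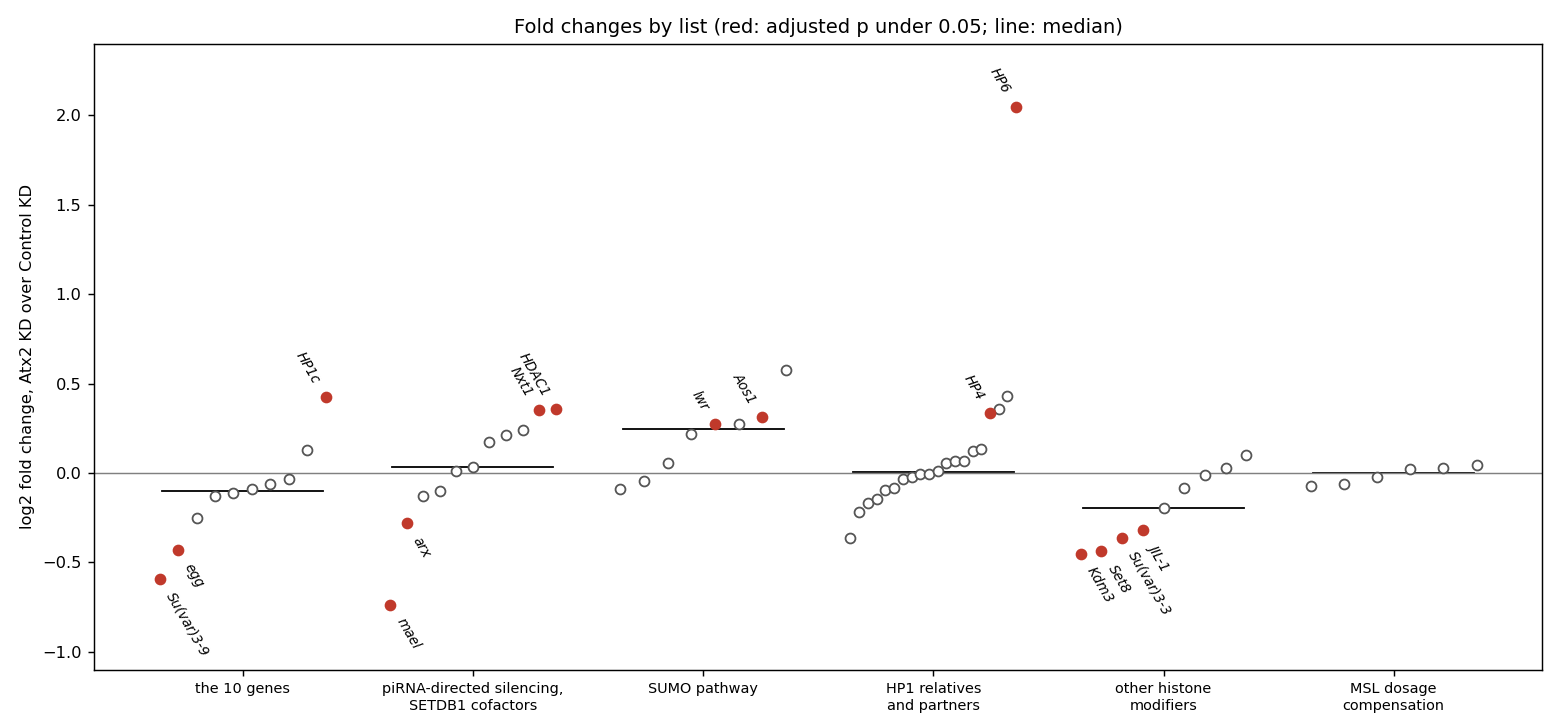
Log2 fold change, Atx2 KD over Control KD, of the 10 genes and of the tested genes on 5 lists of related genes, with 1 point per gene, red where the adjusted p was under 0.05, and a line at the list's median. The histone modifiers that passed lie below 0 and the SUMO pathway genes that passed lie above 0.

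Phf7, a gene whose testis transcript is known to appear in female germ cells that lose egg or wde, was read from the same fit. It was at 47.9, 45.3, 38.6 and 50.5 CPM in Atx2 KD replicates and at 72.5, 59.4 and 55.3 CPM in Control KD replicates, and the groups did not overlap. It fell, with a log2 fold change of -0.45 ± 0.12 (SE) and an adjusted p of 0.0386, a call that 6 of 17 alternatives kept. Phf7-RA held 96.2 ± 1.99% of its counts in Atx2 KD cells (SD, n = 4) and 96.1 ± 2.30% in Control KD cells (SD, n = 3). Phf7-RB was at 0 to 1.69 CPM in Atx2 KD libraries and 0.558 to 1.60 CPM in Control KD libraries, and Phf7-RC at 0 to 1.86 CPM in Atx2 KD libraries and 0.187 to 2.18 CPM in Control KD libraries. Which of these transcripts is the testis one is not given in the sources used here.

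Heat shock genes, which respond to warmth, were at 7.31 and 7.57 mean log2 CPM in Atx2 KD replicates 1 and 2 and at 7.49 and 7.90 in Control KD replicates 1 and 2. Replicates 3 and 4 of the Atx2 KD group were at 8.78 and 8.79, and Control KD replicate 3 was at 8.49. Within the libraries numbered 1 and 2 the differences in mean log2 CPM were -0.68 for Su(var)3-9, -0.50 for egg, -0.27 for G9a and 0.41 for HP1c. Within those numbered 3 and 4 they were -0.51, -0.36, -0.19 and 0.49, with 1 control library and no test. Among the libraries numbered 1 and 2 Su(var)3-9 passed (adjusted p 0.0186), while egg (0.0768), G9a (0.235) and HP1c (0.166) did not. The labels name no batch and give the same digestion for all libraries, so the division of numbers 1 and 2 from 3 and 4 is not theirs. Whether the numbers mark separate preparations is not known, and the part of sample handling in these differences was not tested.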

How the data were processed

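Estimated counts and TPM per gene and per transcript were deposited by the authors, who made them with Salmon 1.9.0 after bcl2fastq 2.20, Trim Galore 0.6.7 and cutadapt 2.10, per the submitters' processing notes. The estimated counts are not normalized, per the file headers, and the deposited TPM are scaled for length. Genome build, annotation and strand setting are not given in the sources used here. Ovaries were digested at 37 °C for 30 min before sorting, and rRNA-depleted libraries were made without poly(A) selection, per the labels' protocols.

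Counts were rounded, filtered with filterByExpr (minimum count 10, minimum total 15), TMM-normalized and tested across all genes or transcripts with edgeR 4.0.16 in R 4.3.3 (quasi-likelihood, group only, two-sided, Benjamini-Hochberg at 0.05). The SE is the log2 fold change divided by the square root of F. Unequal transcript change used diffSpliceDGE with Simes p. limma 3.58.1 and DESeq2 1.42.0 were alternatives. The fits were checked on simulated data, in which the test of unequal change made many false calls. Positions were matched by FlyBase ID to Ensembl release 115 (BDGP6.54), in which all 13771 genes were found. Depth limits precision, and 3 counts correspond to 0.0295 to 0.0460 CPM, which covers counting error only. Libraries of a group differed beyond sampling noise.

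Members, lists and alternatives were chosen with earlier results of these data known. The rule for naming genes took the 10 genes, Atx2, eIF2gamma and Phf7, and per list up to 3 rises and 3 falls that passed with a mean of at least 1 CPM (2 each on chromosome 4). Replicate numbers come from the titles. Deviations from the group means correlated at 0.146, 0.336 and 0.519 for numbers 1, 2 and 3, and at -0.383 to 0.157 between unlike numbers. Number 1 thus lay within the range of unlike numbers, and numbers 2 and 3 lay above it. All numbers were treated as pairs. Atx2 KD replicate 4 has no partner and does not enter the group difference of the blocked fit.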

Additional observations from a re-analysis of the deposited data

Results flagged for a closer look

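A library was looked for that lay far from the other 3 of the Atx2 KD group, in 44 groups of 4 values, and chance flags about 1 in 20 such groups. CG31997 on chromosome 4 was at 9.85 CPM in Atx2 KD replicate 2, well above the other Atx2 KD libraries. In Atx2 KD replicate 4 the transcript Su(var)205-RA held 73.95% of the gene's estimated counts and Su(var)205-RB 26.05%, away from the other Atx2 KD libraries, which lay close together. These 2 shares add up to the whole and are 1 observation.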

How the results depend on the processing

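The call count over all genes, 1396, was 2151 in DESeq2, 2941 with the replicate block, 471 with a covariate for eggshell and yolk genes, 627 among libraries numbered 1 and 2, and 467 to 1454 when single libraries were left out. Of the 10 genes 1 was called among libraries numbered 1 and 2, and 2 to 3 when single libraries were left out. Of the 55 listed pathway genes, with 12 calls, 7 were called by limma on log2(TPM + 1), 19 with the block, 5 with the covariate, 2 among libraries numbered 1 and 2, and 3 to 11 without single libraries. On chromosome 4, with 25 calls, these fits called 41 with the block, 10 with the covariate, 16 among libraries numbered 1 and 2, and 18 to 24 without single libraries. Transcripts of the 10 genes, with 2 calls, numbered 5 under the 1 CPM filter, 0 with the block, 7 in DESeq2 and 0 to 2 without single libraries. Unequal transcript change, with 0 calls, was called for 1 gene with the block and for 0 to 1 without single libraries. The cause of these shifts was not tested, except that the fits on fewer libraries hold fewer samples.

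Directions turned for Pof and HP1b, which pass no test. Pof ranged from -0.12 to 0.046 without single libraries. HP1b was 0.022 under upper-quartile scaling, 0.0147 by limma on log2(TPM + 1) and 0.0149 on log2(TPM + 0.1), and ranged from -0.063 to 0.011 without single libraries. In all, 153 values of the 10 genes kept direction and side of the threshold, 4 gained a call, 8 lost one and 5 turned. Of the other named genes 194 values were kept and 78 lost their call. With the replicate block the pairing added G9a, -0.26, to the genes called, in a fit that called 28.0% of all tested genes. Depth did not limit the 10 genes, which lay far above the level of 3 counts. Precision rests on 7 libraries, and with the block on the pairs numbered 1, 2 and 3 alone.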
